A study of Mus musculus with 8 samples.

Results

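Atrial muscle genes are transcripts that mark the muscle of the heart's upper chambers. The group described here holds 7 of the 18215 genes in the tables of 8 mouse heart libraries: Myl4, Myl7, Sln, Stard10, Dkk3, Nr2f2 and Tbx5. The members are known atrial markers and were found by matching the NCBI Gene number of each row to its mouse symbol. All 7 were listed, and all 7 passed the filter on low counts that left 12670 genes for testing. Polyadenylated RNA from heart tissue was sequenced. Of the libraries, 4 came from mice labelled Carns transgenic (TG) and 4 from mice labelled wild type (WT). Carns1 encodes the enzyme that makes carnosine and related histidyl dipeptides, and the series compares mice with and without the transgene. The labels give no strain, age, promoter of the transgene or heart chamber, and do not say whether each library is a separate animal, so every p-value reflects the spread among libraries, which may be technical.

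The atria and ventricles build their contractile apparatus from different isoforms. Atrial muscle carries the essential myosin light chain Myl4 and the regulatory light chain Myl7, where ventricular muscle carries Myl3 and Myl2. Its calcium pump is restrained mainly by sarcolipin, the product of Sln, in addition to the phospholamban that prevails in ventricles. Nr2f2, also called COUP-TFII, is a nuclear receptor that sets atrial identity and is also used by venous endothelium. Tbx5 is a T-box transcription factor that is strongest in the atria but also active in the left ventricle. Dkk3 encodes a secreted protein of the Dickkopf family, and Stard10 a lipid transfer protein with a START domain.

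Sequences of the members bear on how reads can be told apart and on what lies upstream of the genes that varied most. The complete coding sequence of Sln, with start and stop codons in capitals, is only 96 bases long and encodes 31 residues. It is taken from the GENCODE M21 transcripts and is shown because Sln had the widest range of all members.
Sln: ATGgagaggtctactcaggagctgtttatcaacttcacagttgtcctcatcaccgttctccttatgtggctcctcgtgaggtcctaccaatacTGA
The longest identical runs between coding sequences of related genes are shown next, because a read that lies inside such a run cannot be assigned to 1 gene. Between Myl4 and its ventricular counterpart Myl3 the longest run was 29 bases, and between Myl7 and Myl2 it was 16 bases. Between Nr2f2 and its relative Nr2f1 it was 59 bases. Read length is not given here, so whether whole reads fit inside that run is not known.
Myl4 and Myl3: GAGGACTTCGTGGAGGGGCTGCGGGTCTT
Myl7 and Myl2: TTCAAGGAAGCCTTCA
Nr2f2 and Nr2f1: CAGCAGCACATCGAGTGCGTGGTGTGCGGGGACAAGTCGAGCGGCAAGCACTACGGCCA
The 250 bases upstream of the annotated starts of Myl4 and Myl7 are shown because the levels of these genes ran closely together. They come from the RefSeq table of build GRCm38.p6, which held 4 of the 7 members (Myl4, Myl7, Stard10 and Nr2f2). The Myl4 window is chr11:104550413-104550662 on the plus strand, and the Myl7 window is chr11:5898783-5899032 on the minus strand. Capitals mark the CArG box, the binding motif of serum response factor SRF.
Myl4: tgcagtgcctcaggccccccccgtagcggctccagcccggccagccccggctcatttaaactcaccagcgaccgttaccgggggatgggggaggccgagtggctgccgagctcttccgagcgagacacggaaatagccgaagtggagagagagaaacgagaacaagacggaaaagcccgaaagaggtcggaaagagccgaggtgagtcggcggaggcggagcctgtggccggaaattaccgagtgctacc
Myl7: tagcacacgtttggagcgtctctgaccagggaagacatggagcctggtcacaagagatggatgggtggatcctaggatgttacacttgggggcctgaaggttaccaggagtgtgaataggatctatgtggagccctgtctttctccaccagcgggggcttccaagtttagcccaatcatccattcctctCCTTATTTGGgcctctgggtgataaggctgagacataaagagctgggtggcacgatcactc
Both strands were searched for 6 motifs. These were the T-box motif AGGTGTGA, the GATA motif AGATAA, the NKX2-5 motif TNAAGTG, and the MEF2, CArG and COUP-TF direct repeat motifs by name. The Myl7 window held 1 CArG match, which begins 61 bases before the start, and the other 3 windows held no match to any of the 6. Of 32851 windows of the same length, 1.47% held a CArG match, 1.12% the T-box, 9.99% the GATA, 10.1% the NKX2-5, 0.508% the MEF2 and 0.0335% the COUP-TF motif. A match is a description of letters and not of binding.

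The libraries held between 6261161 and 7897598 counts. They fell into 4 deeper libraries (TG replicates 1 and 3, WT replicates 1 and 2) and 4 shallower ones (TG replicates 2 and 4, WT replicates 3 and 4), separated at the largest gap in depth. A level of 3 counts in a library, taken as the floor, corresponded to 0.386 to 0.476 CPM, the count scaled to a common library size, and covers counting error only. Carns1 stood at 20812 ± 2454 CPM for TG and 62.6 ± 12.5 CPM for WT (n = 4 each, SD), and every TG library lay above every WT library. Genes shared by all heart muscle, such as Myh6 and Actc1, summed to between 84800 and 103890 CPM in every library over 11 genes. Levels are given as CPM scaled by TMM, a method that corrects for differences in composition between libraries. FPKM, which also divides by gene length, is used wherever 1 gene is set against another.

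No atrial gene passed the threshold between TG and WT. In edgeR's quasi-likelihood test the Benjamini-Hochberg adjusted p was 0.9996 for each of the 7, over all 12670 genes. At that threshold 2 genes passed overall (0.0158%). At an unadjusted p under 0.05 the members Myl4, Myl7 and Sln stood among 442 genes (3.49%). DESeq2 also passed 0 of the 7 after adjustment. In none of the 7 did the TG and WT values separate, where 2.53% of all tested genes separated. What the members showed was a wide spread between libraries of the same group, which ran in parallel in Myl4, Myl7, Sln and Dkk3 and was much smaller in Stard10, Nr2f2 and Tbx5.

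**Figure D1:**
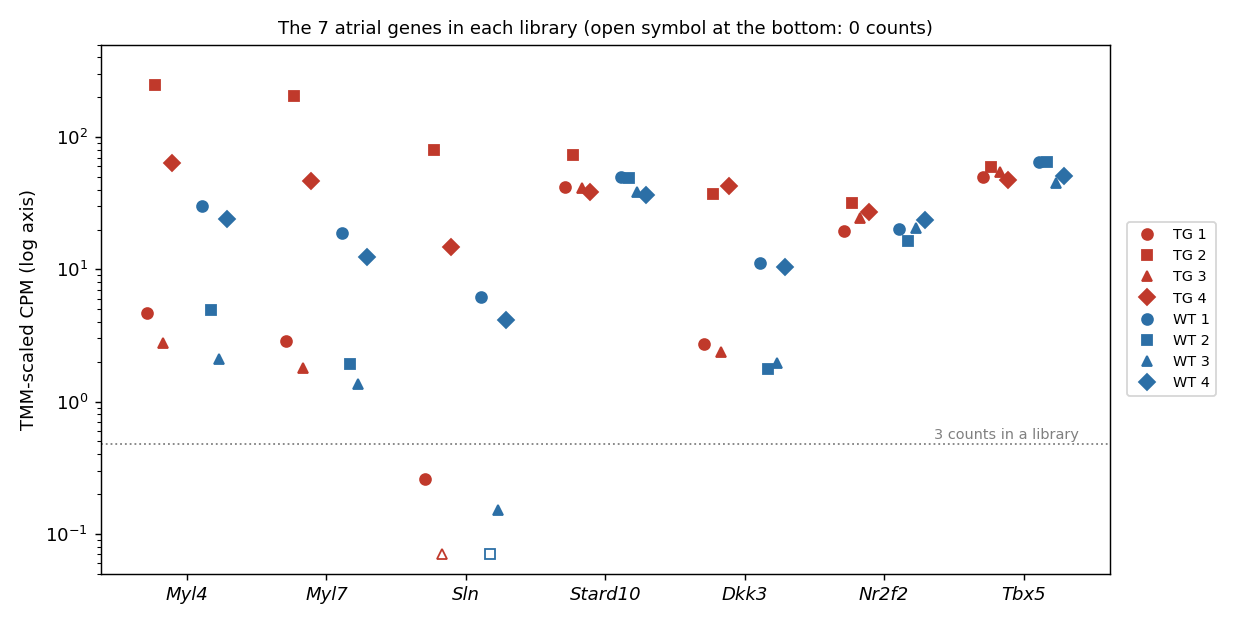
Level of each atrial gene (TMM-scaled CPM, log axis) in every library, with TG in red and WT in blue and the symbol shape giving the replicate number; open symbols mark 0 counts and the dotted line the highest floor of 3 counts (0.476 CPM). For Myl4, Myl7, Sln and Dkk3 the TG 2, TG 4, WT 1 and WT 4 points lie above the other 4, while Stard10, Nr2f2 and Tbx5 keep to a narrow range.

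Myl4, the atrial essential light chain (NCBI Gene 17896), stood at 4.70, 249, 2.78 and 63.7 CPM in TG replicates 1 to 4. In WT replicates 1 to 4 it stood at 30.01, 4.91, 2.11 and 24.1 CPM. TG replicate 2 was the highest library and TG replicate 4 the next, WT replicates 1 and 4 followed, and the other 4 libraries were all below 5 CPM, so both groups held high and low libraries. The group means were 80.03 ± 116 CPM for TG and 15.3 ± 13.9 CPM for WT (n = 4 each, SD). The log2 fold change was 2.37 (SE 1.08, edgeR unadjusted p = 0.047, adjusted p = 0.9996). TG replicate 2 alone gave 77.8% of the summed TG level.

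Myl7, the atrial regulatory light chain (NCBI Gene 17898), followed the same order of libraries at the top. It stood at 2.87, 203, 1.81 and 46.8 CPM in TG replicates 1 to 4 and at 18.8, 1.91, 1.35 and 12.4 CPM in WT replicates 1 to 4. The TG 2 level was 4.33 times that of TG 4 and 10.8 times that of WT 1, the highest WT library. The means were 63.6 ± 95.1 CPM for TG and 8.61 ± 8.48 CPM for WT (n = 4 each, SD), with a log2 fold change of 2.86 (SE 1.14, edgeR unadjusted p = 0.027, adjusted p = 0.9996). The SD exceeded the mean in TG and nearly equalled it in WT.

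Sln, which encodes sarcolipin (NCBI Gene 66402), was the most uneven member. Its counts were 2, 503, 0 and 100 in TG replicates 1 to 4 and 48, 0, 1 and 27 in WT replicates 1 to 4. In CPM, TG replicates 2 and 4 stood at 79.8 and 14.9 and WT replicates 1 and 4 at 6.18 and 4.13. The other 4 libraries held no more than 3 counts each, so Sln was at or under the floor in them. It passed the filter through the 4 libraries with 27 counts or more, which lie in both groups. The means were 23.7 ± 38.02 CPM for TG and 2.61 ± 3.05 CPM for WT (n = 4 each, SD). The log2 fold change was 3.13 (SE 1.31, edgeR unadjusted p = 0.033, adjusted p = 0.9996).

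Dkk3, the Dickkopf family member (NCBI Gene 50781), had the same 4 libraries at the top but a different leader. It stood at 2.74, 36.96, 2.36 and 42.5 CPM in TG replicates 1 to 4 and at 11.1, 1.77, 1.96 and 10.4 CPM in WT replicates 1 to 4. TG replicate 2 was 0.870 times TG replicate 4 for Dkk3, against 3.91 times for Myl4, 4.33 for Myl7 and 5.37 for Sln. The means were 21.1 ± 21.6 CPM for TG and 6.30 ± 5.13 CPM for WT (n = 4 each, SD), with a log2 fold change of 1.72 (SE 0.83, edgeR unadjusted p = 0.059, adjusted p = 0.9996).

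The remaining members were present at similar levels in all 8 libraries. Stard10, the START domain lipid transfer gene (NCBI Gene 56018), stood at 41.6, 73.1, 40.9 and 38.8 CPM in TG replicates 1 to 4 and at 49.97, 48.97, 38.5 and 36.4 CPM in WT replicates 1 to 4. Only TG replicate 2 stood apart, at 1.79 times the median of the other 7 libraries. The means were 48.6 ± 16.4 CPM for TG and 43.5 ± 7.0 CPM for WT (n = 4 each, SD), and the log2 fold change was 0.16 (SE 0.20, edgeR adjusted p = 0.9996). Without TG replicate 2 it was -0.11 and the TG mean was 40.4 ± 1.5 CPM (SD, n = 3).

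Nr2f2, the nuclear receptor of atrial and venous cells (NCBI Gene 11819), stood at 19.6, 31.9, 24.5 and 27.2 CPM in TG replicates 1 to 4. Its WT values were 20.2, 16.4, 20.5 and 23.5 CPM in replicates 1 to 4. TG replicates 2, 4 and 3 were the highest libraries, but TG replicate 1 lay below 3 of the WT libraries, so the groups overlapped. The means were 25.8 ± 5.1 CPM for TG and 20.1 ± 2.9 CPM for WT (n = 4 each, SD), with a log2 fold change of 0.35 (SE 0.17, edgeR unadjusted p = 0.052, adjusted p = 0.9996). Nr2f2 was the 1 member of the 7 whose log2 fold change kept its sign in every alternative tried, at 0.13 to 0.47.

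Tbx5, the T-box factor (NCBI Gene 21388), varied least. It stood at 49.7, 59.3, 54.6 and 47.4 CPM in TG replicates 1 to 4 and at 64.3, 64.8, 44.8 and 51.05 CPM in WT replicates 1 to 4. The means were 52.8 ± 5.3 CPM for TG and 56.2 ± 9.9 CPM for WT (n = 4 each, SD), and the log2 fold change was -0.09 (SE 0.14, edgeR adjusted p = 0.9996). Its highest libraries were WT replicates 2 and 1, and WT replicate 2 was among the lowest for Myl7, Sln and Dkk3.

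Across the 7 members, TG replicate 2 was the highest library in 5, where it was the highest of the 8 in 15.2% of all tested genes. TG replicates 2 and 4 were the highest pair in 5 of the 7, against 7.21% of all tested genes. In 4 members (Myl4, Myl7, Sln and Dkk3) TG replicate 2 stood at least 4 times above the median of the other libraries. That held for 30 of the 12670 tested genes (0.237%). In the same 4 members TG replicates 2 and 4 and WT replicates 1 and 4 were the 4 highest libraries, an arrangement found in 1.66% of all tested genes. These counts describe members that were chosen with results of these libraries known. The libraries singled out in the counts are those where these members were high, so the shares are no test. In bulk tissue, fewer cells of a type and less RNA per cell cannot be told apart.

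The ratio of Myl4 to Myl7 varied far less between libraries than the level of either gene. This did not hold for every atrial pair, since the FPKM ratio of Nppa to Myl7 ran from 1.09 in TG replicate 2 to 72.4 in WT replicate 3. Per unit length, Myl4 stood at 0.816 times Myl7 in TG replicate 2 and 0.905 times in TG replicate 4. In the other libraries this FPKM ratio lay between 1.02 and 1.71, with the highest value in WT replicate 2, where Myl7 had 14 counts. Sln stood at 0.443, 0.358, 0.370 and 0.375 times Myl7 in TG 2, TG 4, WT 1 and WT 4, the 4 libraries where Sln was above the floor. The level of Myl7 across those 4 libraries ranged from 22.5 to 355 FPKM.

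**Figure D2:**
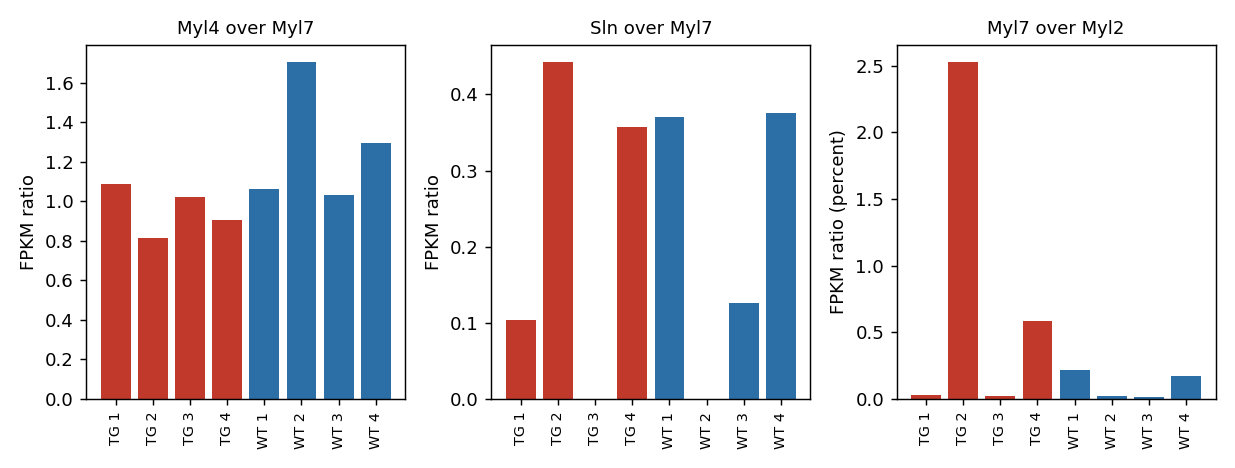
FPKM ratios within each library (TG red, WT blue, bars from 0): Myl4 over Myl7, Sln over Myl7, and Myl7 over the ventricular Myl2 in percent. Sln over Myl7 lies between 0.358 and 0.443 in TG 2, TG 4, WT 1 and WT 4 and rests on 2 counts of Sln or fewer in the other libraries, while Myl7 over Myl2 reaches 2.53% in TG 2.

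Against the ventricular isoforms the atrial transcripts were a small fraction in every library. Myl7 amounted to 2.53% of the FPKM of Myl2 in TG replicate 2, 0.586% in TG replicate 4 and between 0.0163% and 0.216% in the other 6. Myl4 amounted to 5.28% of the FPKM of Myl3 in TG replicate 2, 1.45% in TG replicate 4 and between 0.0374% and 0.473% elsewhere. Sln amounted to 7.63% of the FPKM of Pln, which encodes phospholamban, in TG replicate 2 and 1.55% in TG replicate 4. The order of the members by length-scaled level therefore differed between libraries. In TG replicate 2 Myl7, Myl4 and Sln led at 355, 290 and 157 FPKM, ahead of Stard10 at 62.05 and Tbx5 at 14.99. In TG replicate 3 Stard10 and Tbx5 led at 33.5 and 13.3 FPKM, Myl4 and Myl7 stood at 3.13 and 3.06, and Sln was listed at 0.

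The direction of the TG against WT difference in the 4 uneven members rested on TG replicates 2 and 4. These were the highest TG libraries for each of the 4, and the high WT libraries were kept. A fall in the fold change without them therefore follows from that choice. Without TG replicate 2 the log2 fold changes of Myl4, Myl7, Sln and Dkk3 were 0.61, 0.96, 0.89 and 1.31. Without both TG replicates 2 and 4 they were -2.03, -1.88, -4.13 and -1.30, and no atrial gene passed there either (edgeR, adjusted p = 0.942 for each of the 4). The Sln value in that fit depends on the prior count, since both remaining TG libraries held 2 counts or fewer. Within the deeper libraries alone the fold changes of Myl4, Myl7 and Dkk3 were -2.22, -2.15 and -1.34. Within the shallower ones alone those of Myl4, Myl7, Sln and Dkk3 were 3.57, 4.18, 4.46 and 2.69. The deeper fit holds the same TG libraries as the fit without TG replicates 2 and 4, so those 2 are not separate results. The exact permutation test over the 8 libraries, two-sided and on log2 CPM, gave p = 0.486 for Myl4, 0.429 for Myl7, 0.486 for Sln, 0.371 for Dkk3, 0.143 for Nr2f2, 0.743 for Stard10 and 0.600 for Tbx5. The smallest p this design allows is 0.029.

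**Figure D3:**
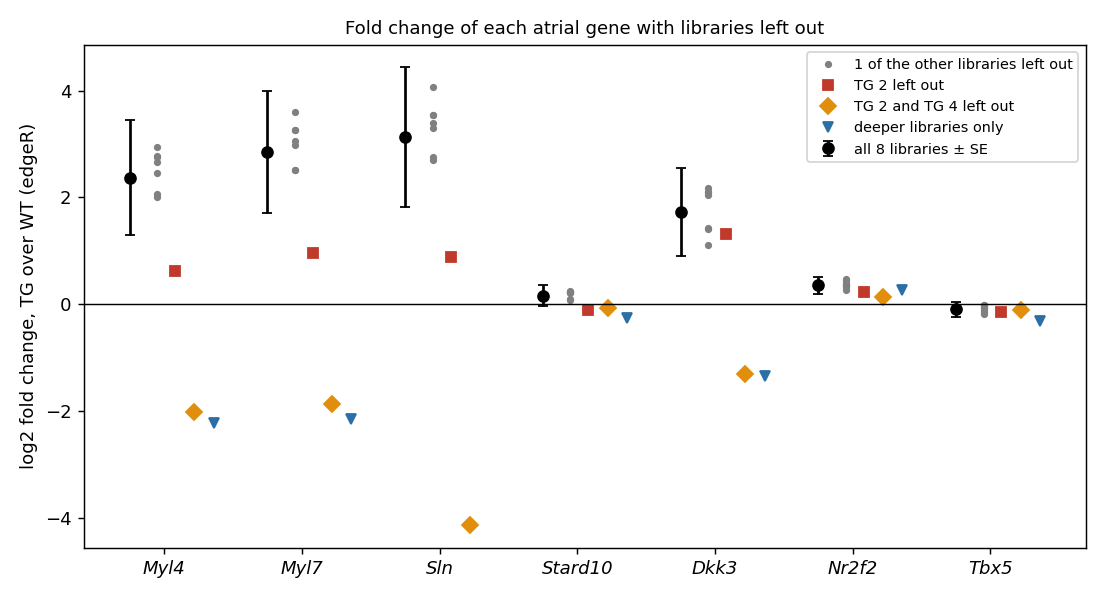
The log2 fold change of each atrial gene, TG over WT, from edgeR with all 8 libraries (black, ± SE), with 1 of the other libraries left out (grey), with TG 2 left out (red), with TG 2 and TG 4 left out (orange) and in the deeper libraries only (blue; Sln could not be fitted there). Myl4, Myl7, Sln and Dkk3 change sign when TG 2 and TG 4 are both left out, while Nr2f2 and Tbx5 stay close to 0.

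The genes whose profiles were most like those of the uneven members were largely the same few. Likeness was measured as the root mean square difference between log2 CPM profiles over the 8 libraries, each centred on its own mean, so that a smaller value is a closer match. Among 12524 genes the nearest to Myl7 was Myl4, at 0.28. Mybphl, an atrial relative of the myosin binding proteins, followed at 0.55, then Sln at 0.60, Cidec, a lipid droplet gene of fat, at 0.72 and Dkk3 at 0.86. The nearest to Sln were Myl7, Myl4, Mybphl and Cidec, and then Car3, a carbonic anhydrase of fat and muscle, at 1.18. The nearest to Dkk3 were instead Lmntd1 at 0.53, the cartilage matrix gene Cilp2 at 0.58 and the collagen Col12a1 at 0.76, followed by Myl4 at 0.79 and Mybphl at 0.80. Col12a1 stood at 12.8 CPM in TG replicate 4 and 5.08 CPM in TG replicate 2, the same leader as Dkk3. Lmntd1 and Cilp2 were at no more than 0.1504 CPM in TG replicate 3 and WT replicates 2 and 3, under the floor. Their likeness in those libraries depends on the prior count. Mybphl, Cidec and Sln were also under the floor in TG replicate 3.

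Other genes known from the atria did not all follow. Of 15 such genes 12 were tested, none passed in either direction, 5 had a positive and 7 a negative fold change, and the median was -0.05, beside -0.0017 over all genes tested. In 5 of the 12 the highest library was TG replicate 2, against 15.2% of all tested genes. Mybphl alone of the 12 had the same 4 libraries at the top. It stood at 0.783, 33.6, 0.139 and 5.50 CPM in TG replicates 1 to 4 and at 3.22, 0.136, 0.451 and 2.29 CPM in WT replicates 1 to 4. The potassium channel genes Kcnj3 and Kcnj5 together form the acetylcholine-activated channel of atrial muscle. Kcnj3 averaged 48.3 ± 15.1 CPM for TG and 55.2 ± 11.6 CPM for WT, and Kcnj5 averaged 68.98 ± 7.34 CPM for TG and 56.1 ± 6.1 CPM for WT (n = 4 each, SD). Gja5, the gap junction gene of atria and conduction system, stood at 18.2 ± 1.2 CPM for TG and 18.5 ± 2.5 CPM for WT, and Pam, a granule enzyme and membrane protein, at 498 ± 116 and 482 ± 70.5 CPM (SD, n = 4 each).

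Nppa, which encodes atrial natriuretic peptide and is also made by stressed ventricles, also had its highest level in TG replicate 2. It stood at 66.2, 324, 56.7 and 90.2 CPM in TG replicates 1 to 4 and at 143, 190, 143 and 219 CPM in WT replicates 1 to 4. The other 3 TG libraries were all lower than every WT library. With all 8 libraries the log2 fold change was -0.38 (SE 0.44, edgeR adjusted p = 0.9996). Without TG replicate 2 it was -1.29 (edgeR adjusted p = 0.134). Without TG replicates 2 and 4 it was -1.50 and Nppa fell past the threshold in TG (edgeR adjusted p = 0.035, 2 TG against 4 WT libraries). Within the deeper libraries it was -1.44 (edgeR adjusted p = 5.84e-05, 2 against 2), and within the shallower it was 0.19 (adjusted p = 0.988). Of the alternative fits run, Nppa passed in 2 alone, that without TG replicates 2 and 4 and that of the deeper libraries. Both hold only TG replicates 1 and 3, its lowest TG libraries, so they are not separate results. How far the level of atrial genes contributes to Nppa was not tested.

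Sbk2, a kinase gene of atrial muscle, had a negative fold change. It stood at 4.18, 3.33, 2.502 and 2.525 CPM in TG replicates 1 to 4 and at 9.14, 7.64, 5.41 and 5.35 CPM in WT replicates 1 to 4. All 4 TG libraries lay below all 4 WT libraries, with TG replicate 2 no higher than TG replicate 1. The log2 fold change was -1.13 (SE 0.25), and the unadjusted p of 6.33e-04 did not pass after adjustment (edgeR, adjusted p = 0.445; DESeq2, adjusted p = 0.102). Within the deeper libraries alone it was -1.32 (edgeR adjusted p = 0.049985, 2 against 2 libraries). Within the shallower it was -0.88 (edgeR adjusted p = 0.797), and with depth class as a covariate it was -1.13 (edgeR adjusted p = 0.054).

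**Figure D4:**
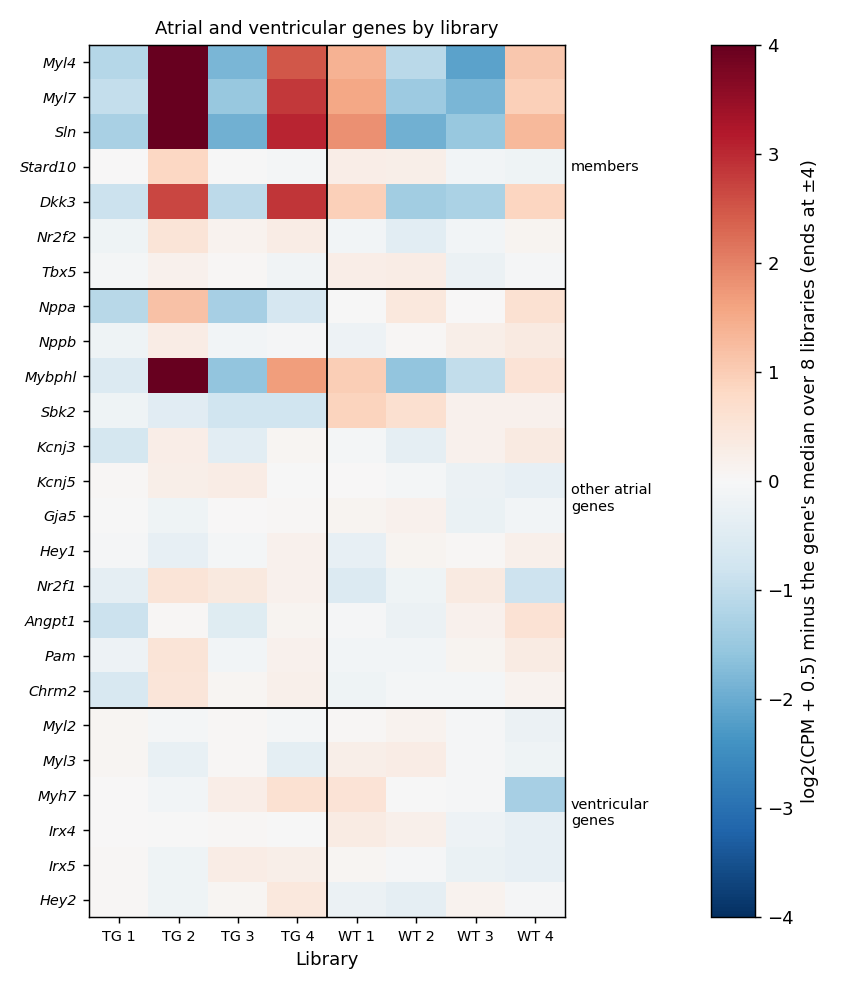
Level of the 7 members, 12 other atrial genes and 6 ventricular genes in each library, as log2(CPM + 0.5) minus the gene's median over the 8 libraries, with red above and blue below the median and the scale ending at ±4. Myl4, Myl7, Sln, Dkk3 and Mybphl share the red columns TG 2, TG 4, WT 1 and WT 4, while none of the 6 ventricular genes is highest in TG 2.

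No gene of ventricular muscle passed the test. All 6 were tested, 3 had a positive and 3 a negative fold change, and the median was 0.12. Myl2 stood at 8933 ± 525 CPM for TG and 8957 ± 942 CPM in WT, and the ventricular transcription factor gene Irx4 at 52.2 ± 1.4 and 53.2 ± 11.7 CPM (SD, n = 4 each). In TG replicate 2 Myl2 was at 0.919 and Irx4 at 0.964 times the median of the other libraries. Myl3, the ventricular essential light chain, stood at 5374 ± 877 CPM for TG and 6266 ± 962 CPM for WT (n = 4 each, SD). Its lowest libraries were TG replicates 4 and 2.

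Partner genes of the members did not pass the test. None of 5 tested genes of the calcium pump list passed (median 0.02). Atp2a2, the pump that sarcolipin binds, stood at 10990 ± 277 CPM for TG and 11340 ± 624 CPM in WT, and Pln at 4140 ± 642 and 4126 ± 388 CPM (SD, n = 4 each). None of 9 tested cardiac transcription factors passed (median -0.01), and none of 3 genes of Dickkopf relatives and Wnt co-receptors (median 0.04) or 7 other START domain and related lipid transfer genes (median -0.14). Among 11 genes shared by all heart muscle none passed, with 8 negative fold changes and a median of -0.08.

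Markers of other cell types were measured beside the members. The summed level of 10 adipocyte markers was 1661 CPM in TG replicate 2, between 381 and 432 CPM in the other TG libraries and between 366 and 564 CPM in WT. Of those 10, 3 passed the filter and none the test. Lep, Retn and Ucp1 were at 0 in some libraries but highest in TG replicate 2. Ucp1 stood at 124 CPM there and at no more than 0.391 CPM elsewhere. Retn stood at 9.99 CPM there against at most 1.42 CPM, and Lep at 3.49 against at most 0.149 CPM. Car3 reached 393 CPM in TG replicate 2 and 18.1 CPM in TG replicate 4, with 4.38 CPM as the highest of the remaining libraries. Fabp4, a fatty acid carrier also made by endothelium, stood at 440 ± 162 CPM for TG and 442 ± 92.7 CPM for WT (n = 4 each, SD). Fabp4 held 683 CPM of the adipocyte sum in TG replicate 2. In the other libraries it held between 317 and 528 CPM, which was most of the sum there. The part of adipose tissue in the atrial gene levels was not tested. Skeletal muscle also uses Sln. Its 10 markers summed to between 36.8 and 93.3 CPM for TG and between 24.6 and 78.4 CPM for WT. The highest sums were in TG replicate 2, the library with most Sln, and WT replicate 4, and the other TG libraries reached at most 45.6 CPM. WT replicate 1, the WT library with most Sln at 6.18 CPM, had the lowest sum of all 8 libraries, at 24.6 CPM. Myl1 gave 82.3 of the 93.3 CPM in TG replicate 2. The part of skeletal muscle in the Sln levels was not tested. Myl1 alone of them passed the filter, and Tnnt3, Tnnc2, Myh1, Myh2, Myh4 and Pvalb were at 0 in some libraries. The 7 markers of venous and lymphatic endothelium, cells that also express Nr2f2, summed to between 522 and 709 CPM for TG and between 580 and 670 CPM in WT, with the lowest sum in TG replicate 2. The 7 fibroblast markers summed to 2012 CPM in TG replicate 4, the library with most Dkk3. They summed to between 1302 and 1640 CPM in the other TG libraries and between 1272 and 1809 CPM in WT. WT replicate 1, the WT library with most Dkk3 at 11.1 CPM, had a sum of 1322 CPM. The highest WT sum was in WT replicate 4, where Dkk3 stood at 10.4 CPM. The part of fibroblasts in the Dkk3 levels was not tested. No gene of any marker list passed the test with all 8 libraries. In TG the libraries with high levels of Myl4, Myl7, Sln and Dkk3 were the shallower replicates 2 and 4, so depth and level coincided. In WT the high libraries were replicate 1, a deeper one, and replicate 4, a shallower one. With depth class as a covariate the log2 fold changes of Myl4, Myl7, Sln and Dkk3 were 1.34, 1.85, 2.44 and 1.21. None passed there (edgeR adjusted p from 0.561 to 0.754). The depth term itself, and so the part of depth in the atrial gene levels, was not tested.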

How the data were processed

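Per the file headers, the deposited table of a library pairs NCBI Gene numbers with FPKM and an expected count. Both are the authors' estimates: the expected count is an estimated count of reads or fragments per gene, not normalized, and FPKM is scaled by gene length and library size. The submitters' processing notes name Bowtie2 and the mm8 build, with no steps. The counting program and the use of strand are not given in the sources used here. Genes absent from a library's table were taken as 0.

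Expected counts were rounded. Symbols were matched by number to the RefSeq table of GRCm38.p6 (18174 of 18215), and no coordinates of the mm8 data are given. Groups were compared with edgeR 4.0.16 in R 4.3.3 with filterByExpr, TMM scaling and the group as the only term, with two-sided p-values adjusted by Benjamini-Hochberg over 12670 genes and a threshold of 0.05. The SE of a log2 fold change was its size over the root of the F statistic. Log2 CPM used a prior count of 2. Alternatives were DESeq2 1.42.0, limma 3.58.1 on log2(FPKM + 1) and log2(FPKM + 0.1) or with voom, other scalings and filters, a replicate block, depth class, and left-out libraries. The scripts were tested on simulated counts. Within groups, pairs of libraries differed by at least 4.45 in chi-square per degree of freedom, so none were copies of 1 library. This does not show whether 2 libraries came from the same animal.

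Members, lists and tests were chosen with earlier results of these data known. Named genes were the members, tested genes of the atrial and ventricular lists, up to 4 of each other list (the most abundant and the 3 with the smallest p), markers at 0 in some libraries, and the 5 genes nearest in profile to each member whose highest library was at least 4 times its lowest.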

Additional observations from a re-analysis of the deposited data

Results flagged for a closer look

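In 28 genes examined within each group of 4 libraries, 1 library lay far outside the range of the other 3 in 4 of 56 cases, and in all 4 it was TG replicate 2. The rule flags about 5% of cases by chance when cases are independent, which these were not. The 28 genes were the members and the tested atrial and ventricular genes, with Hcn4, Myl1 and Car3 added by choice. Car3 and Mybphl were also among the genes nearest in profile to Sln. The count is therefore a description and not a test. Stard10 reached 73.1 CPM in TG replicate 2, against 38.8 to 41.6 CPM in the remaining TG libraries. Nppa stood at 324 CPM against 56.7 to 90.2 CPM. Mybphl stood at 33.6 CPM against 0.139 to 5.50 CPM, and Car3 at 393 CPM against 0.695 to 18.1 CPM. Myl4, Myl7, Sln and Dkk3 were not among these cases, because TG replicate 4 was also high.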

How the results depend on the processing

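The count of atrial genes past the threshold was 0 in every alternative fit. The number of genes past it overall was 2 with edgeR and all libraries. It was 15 with DESeq2, 4 with no filter on low counts, 1 with limma on either log2(FPKM + 1) or log2(FPKM + 0.1), 28 with depth class as a covariate, 59 in the deeper and 4 in the shallower libraries only, and between 1 and 3 when 1 library was left out (1 when the library left out was TG replicate 2, TG replicate 4, WT replicate 2 or WT replicate 3). With the replicate number as a block it was 1, with 0 atrial genes. Deviations from the group means correlated at 0.24, -0.28, -0.18 and 0.40 between same-numbered libraries. TG replicate 4 was closest to WT replicate 4, but TG replicates 1 and 3 were closest to WT replicate 2 and TG replicate 2 to WT replicate 4. Whether the numbers pair libraries is not known, and these values cannot decide it. Of the other lists, 3 genes passed in the deeper libraries only (Nppa, Hcn4 and Sbk2) and 1 without TG replicates 2 and 4 (Nppa), against 0 with all libraries. Fold changes reversed in the deeper libraries only for Myl4 (-2.22), Myl7 (-2.15), Dkk3 (-1.34) and Stard10 (-0.26). Without TG replicates 2 and 4 they reversed for Myl4 (-2.03), Myl7 (-1.88), Sln (-4.13), Dkk3 (-1.30) and Stard10 (-0.076). With 1 library left out, the Stard10 fold change ran from -0.11 (without TG replicate 2, the only reversal among those fits) to 0.25. Tbx5 reversed in 1 fit, that of the shallower libraries only (0.16). These alternatives hold fewer libraries. The deeper fit and the fit without TG replicates 2 and 4 hold the same TG libraries. Sln had too few counts to be fitted in the deeper libraries. The highest library of each member, over the median of the 8, moved by less than the spread with FPKM or library totals. Below about 3 counts in a library Sln levels are not resolved.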

Other observations

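The sinus node is the pacemaker tissue in the wall of the right atrium. Of 6 markers 3 were tested, and none passed in the fit over all 8 libraries. Hcn4, the main pacemaker channel gene, stood at 8.74, 10.3, 11.3 and 10.2 CPM in TG replicates 1 to 4 and at 19.1, 19.4, 11.3 and 17.9 CPM in WT replicates 1 to 4. All TG libraries lay below all WT libraries, with TG replicate 3 and WT replicate 3 nearly level. The log2 fold change was -0.74 (SE 0.18, edgeR unadjusted p = 0.0015, adjusted p = 0.604). In the deeper libraries only it was -0.94 and passed (edgeR adjusted p = 0.026, 2 against 2 libraries), and in the shallower only it was -0.50 (adjusted p = 0.903). The calcium channel gene Cacna1g stood at 25.2 ± 3.4 CPM for TG and 24.6 ± 3.1 CPM for WT (n = 4 each, SD).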
